A study of Gallus gallus with 15 samples.

Results

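A set of 51 gene names of the HOX, T-box (TBX), SIX-type, MEIS and PBX families was followed at 3 ages in breast muscle of the Jingyuan chicken. They were taken by name alone: every name in the expression table that consists of HOXA, HOXB, HOXC or HOXD and a number, TBX and a number, or is a numbered SIX-family (1 to 6), MEIS (1 to 3) or PBX (1 to 4) name. This gave 51 of 23599 gene names, of which 32 were HOX genes (11 HOXA, 10 HOXB, 4 HOXC and 7 HOXD), 12 were TBX genes, and the other 7 were SIX-family, MEIS and PBX genes. Members of these families under other names were not analysed here. The question was which of these positional and muscle identity genes were still transcribed in breast muscle between 42 and 180 days of age, and whether their levels differed between ages.

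HOX genes encode homeodomain transcription factors that lie in clusters, and the place of a gene in its cluster follows the part of the body axis in which the embryo switches it on. MEIS and PBX proteins are homeodomain partners that bind DNA together with HOX proteins, TBX proteins pattern limbs and mesenchyme, and SIX-family proteins act with EYA co-activators on muscle genes in the mouse. Muscle cells and the connective tissue around them often keep part of the HOX pattern of the place where they arose, and breast muscle arises at the level of the wing.

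The birds were Jingyuan hens kept under 1 regime with free access to feed and water, and the labels name no treatment and no engineered allele. Whole breast muscle of 5 birds each was sequenced at 42, 126 and 180 days, each library of polyA RNA being taken as 1 bird. The group weights in the labels were 0.422 ± 0.03 kg for the youngest birds, 1.68 ± 0.14 kg for the middle group and 2.03 ± 0.09 kg for the oldest. The labels also carry the words myoblast and primary cell, although the tissue is breast muscle, and no technical batch is given.

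Levels are FPKM, that is fragments mapped to a gene per kilobase of its length and per 1000000 mapped fragments of the library, so that genes can be set side by side. The table holds no read counts, and the depth of each library is therefore unknown. The FPKM of a library summed to between 413638 and 481698. The muscle label was checked with fast muscle genes, and MYL1 (7310 to 15408 FPKM) and TNNT3 (3884 to 12885 FPKM) were high in all 15 birds, whereas PVALB did not exceed 4.37 FPKM. Bird 1 at 180 days and bird 1 at 126 days had the lowest mean correlation with the other birds (0.848 and 0.871, against 0.889 to 0.931 for the rest). The first had the highest summed T cell (82.7 FPKM), B cell (518 FPKM) and myeloid (1180 FPKM) markers of the 15 birds. The second had the highest summed fibroblast (1272 FPKM), endothelial (176 FPKM) and erythrocyte (271 FPKM) markers. Age means of described members that either bird moved by over 1.5 times are given without it as well.

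In all, 23 of the 51 members had a mean of at least 0.5 FPKM at each of the 3 ages and are called on here. These were 13 HOX genes (8 HOXA and 5 HOXB), 5 TBX genes (TBX15, TBX18, TBX3, TBX21 and TBX2) and 5 genes of the SIX-type, MEIS and PBX families, SIX4, MEIS1 and PBX3 among them. None of the 4 HOXC and none of the 7 HOXD genes was on. The 23 genes were 45.1% of the members, and the same rule held for 45.1% of all gene names, so that the share that was on equals the background. The count was 33 with a level of 0.1 FPKM, 19 with a level of 1 FPKM and 23 without either of the libraries that stood apart. MEIS2, HOXB3, HOXA2 and HOXD8 reached 0.5 FPKM at only 1 or 2 ages. The members that were not on were low throughout, as 16 of the 51 had a mean under 0.1 FPKM over the 15 birds, and HOXC13 was listed at 0 in all of them. Such values hold few decimals, and without counts a listed 0 is no proof that a transcript was missing.

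**Figure D1:**
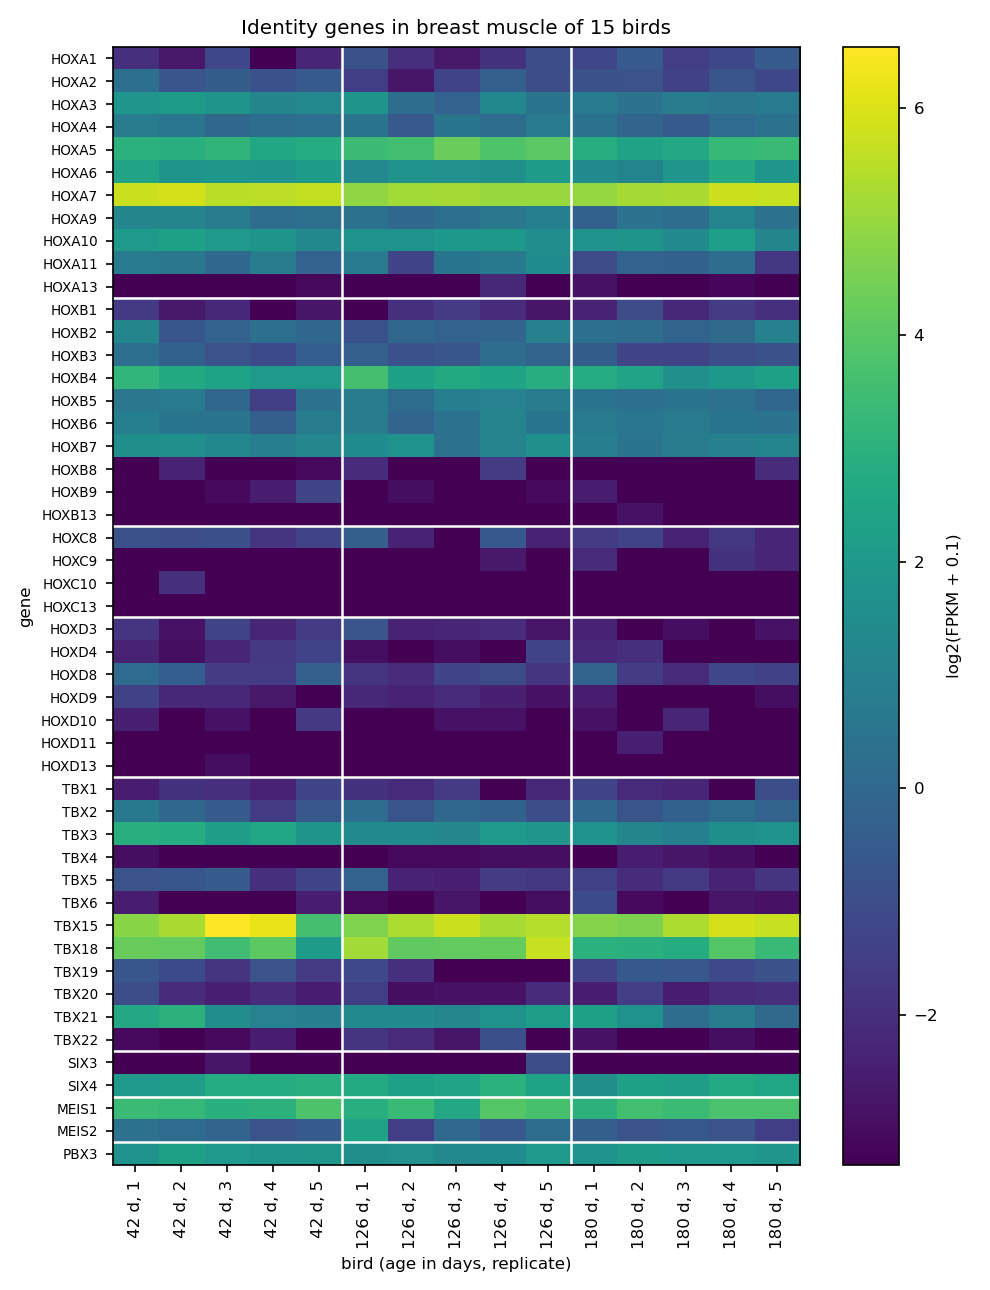
Level of 49 of the 51 members (down the page, by family, on a scale of log2 of FPKM + 0.1) in each of the 15 birds (across, by age and replicate). TBX15 and HOXA7 stand out in nearly every bird, while the HOXC and HOXD blocks stay at the low end at all 3 ages.

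The highest HOX gene and the highest T-box gene stood at like levels. Over the 15 birds TBX15 averaged 43.2 ± 20.9 FPKM and HOXA7 42.5 ± 9.97 FPKM (SD, n = 15). Their ranges over the birds overlapped, and no order between them holds beyond the spread. TBX18 was above both in birds 1 and 5 at 126 days. Lower means were those of TBX18 (17.2 FPKM), MEIS1 (10.4 FPKM), HOXA5 (9.73 FPKM), HOXB4 (5.82 FPKM), SIX4 (5.53 FPKM), TBX3 (3.69 FPKM), HOXA6 (3.58 FPKM) and PBX3 (3.51 FPKM), over the 15 birds. Every 2 neighbours in this order overlapped in range.

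HOX genes were transcribed mainly from the middle of the HOXA and HOXB clusters. Counted by paralogue number, which runs along the cluster, numbers 4 to 8 held 86.2% of the summed HOX means, with 8 of their 12 measured genes on. Numbers 1 to 3 held 6.03% with 2 of 7 genes on (HOXA3 and HOXB2), and numbers 9 to 13 held 7.73% with 3 of 13 on (HOXA9, HOXA10 and HOXA11). HOXA7 alone held between 39.5% and 62.8% of the HOX sum of a bird (median 55.4%). It exceeded the next highest HOX gene of the same bird by 1.93 to 8.19 times (median 5.20). Its cluster neighbours were far lower, as HOXA7 was 7.39 to 17.9 times HOXA6 and 17.4 to 44.9 times HOXA9. In the HOXB cluster HOXB4 led with 5.602 ± 2.06, 7.15 ± 3.06 and 4.71 ± 1.49 FPKM at 42, 126 and 180 days (SD, n = 5 each). The 126-day mean was 5.84 ± 0.99 FPKM without bird 1 (SD, n = 4). This level is the sum of 3 entries of the table, the highest of which held 48.6%.

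The ends of the clusters and the HOXC and HOXD genes were low. HOXA13, HOXB13, HOXC13 and HOXD13, the genes at the ends of the clusters, did not exceed 0.12 FPKM in any bird. HOXC8, the highest of the HOXC genes, ranged from 0 to 0.70 FPKM (median 0.24), and HOXD8, the highest of the HOXD genes, from 0.13 to 0.98 FPKM (median 0.29). HOXC9, HOXC10, HOXD3, HOXD4, HOXD9, HOXD10 and HOXD11 reached at most 0.51 FPKM in any bird. HOXB8 and HOXB9, the numbers after HOXB7, reached at most 0.32 FPKM, against 1.23 to 3.22 FPKM for HOXB7. In the RefSeq annotation (GRCg7b), HOXA3 spans HOXA4 to HOXA6, HOXB3 spans HOXB4 to HOXB6, and HOXA9 and HOXA10 overlap, as do HOXD3 and HOXD4. The sources used here do not state whether reads were assigned by strand or which gene models were used, so that the split among these neighbours is uncertain, while HOXA7 overlaps none of them.

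**Figure D2:**
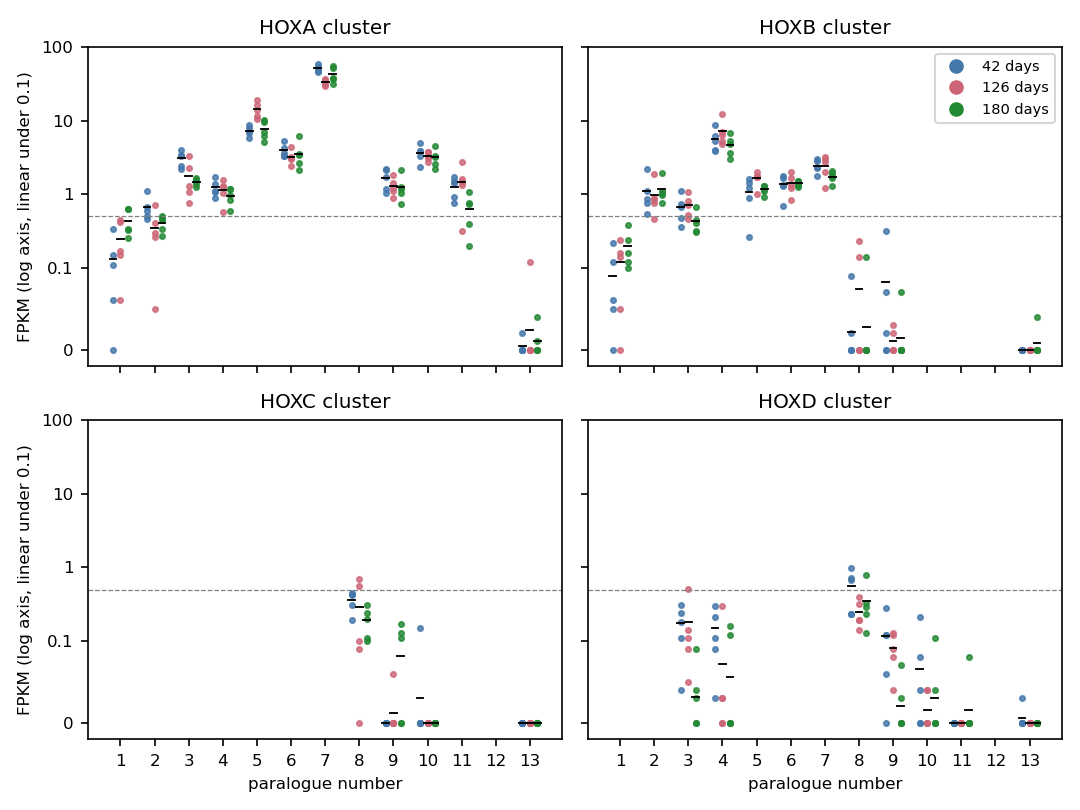
FPKM of the HOX genes (vertical, a log axis that is linear under 0.1) by paralogue number (horizontal) in the 4 clusters, 1 point per bird, coloured by age, with a bar at the mean of 5 birds and a dashed line at 0.5 FPKM. HOXA7 lies between 29.8 and 59.6 FPKM, above all other HOX genes, and HOXC and HOXD genes lie at or under 0.98 FPKM.

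The next question was whether these levels differed between ages. Each pair of ages was compared with limma, on values of log2(FPKM + 0.1). All gene names entered whose mean over the 10 birds reached 0.5 FPKM. A differentially expressed gene (DEG) needed an adjusted p under 0.05 (Benjamini-Hochberg) and a log2 fold change of 1 or more in either direction. Of the 51 members, 26 passed the filter in the comparison of 126 with 42 days, 26 in that of 180 with 42 days and 25 in that of 180 with 126 days. None of the members was a DEG in any of them. Of all genes tested, 2.46%, 2.93% and 0.921% were DEGs in these comparisons, so that fewer than 1 of 26 members would be called at the background share. At an unadjusted p under 0.05 there were 5 of 26, 3 of 26 and 2 of 25 members, where 19.6%, 17.6% and 15.8% of all genes tested had one, so that the members did not exceed the background. The median log2 fold change of the members was -0.08, -0.25 and -0.09, against -0.15, -0.13 and 0.01 over all genes tested, and the median absolute change was 0.25, 0.27 and 0.31, against 0.31, 0.29 and 0.27. Among the 23 genes that were on, the highest of the 3 age means exceeded the lowest by a median of 1.30 times, against 1.39 times over all gene names that were on. Only TBX18, HOXA11, TBX3 and HOXA3 reached 2 times (17.4%, against 15.9% of all names that were on).

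**Figure D3:**
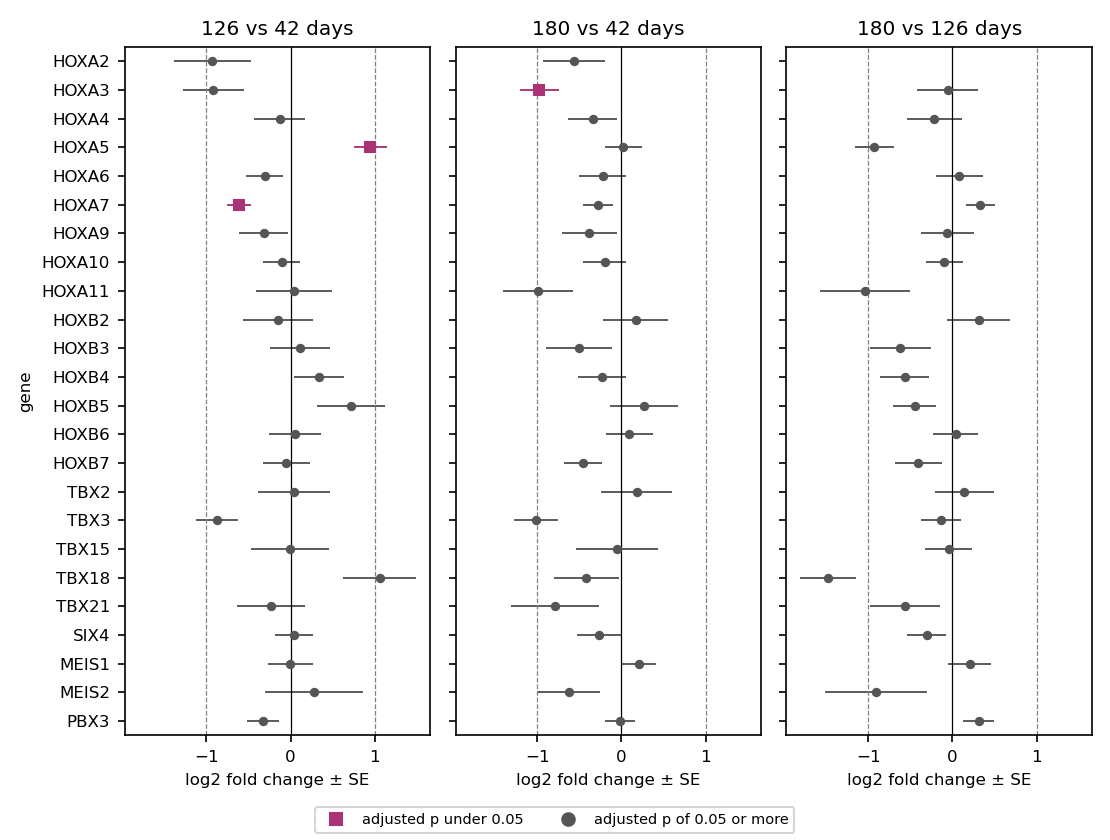
Log2 fold change (horizontal, with its standard error) of members that were tested (down the page) for 126 against 42 days, 180 against 42 days and 180 against 126 days, the later age over the earlier. Squares mark the 3 values with an adjusted p under 0.05, HOXA5 (0.95) and HOXA7 (-0.61) at 126 against 42 days and HOXA3 (-0.98) at 180 against 42 days, none of which reaches an absolute change of 1.

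HOXA5, a HOX gene of the neck and chest levels in the mouse, was higher at 126 days than at 42 days. It stood at 7.84, 7.27, 8.74, 5.77 and 6.77 FPKM at 42 days, at 10.6, 11.5, 19.2, 14 and 16.2 FPKM at 126 days, and at 6.98, 5.06, 6.09, 9.57 and 10.2 FPKM at 180 days. All 5 birds of 126 days lay above all 10 birds of the other ages. The log2 fold change was 0.95 (SE 0.20, limma, adjusted p = 0.0285) at 126 against 42 days, which passes the p threshold and stays under the fold threshold. It was 1.09 relative to the median of all genes, and HOXA5 counted as a DEG with quantile normalization (1.03). Over 9 alternatives its adjusted p ran from 0.0216 to 0.0668 (limma), and it stayed under 0.05 in 3 of the 10 fits that left out 1 bird (0.0205 to 0.0726). At 180 against 126 days it was -0.93 (SE 0.23, limma, adjusted p = 0.0745). These comparisons share the 126-day birds and are not independent of each other. HOXA5 lies inside the RefSeq span of HOXA3, which was lower at 126 than at 42 days on average (1.75 ± 1.04 FPKM, against 3.06 ± 0.76 FPKM, SD, n = 5 each).

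HOXA7, the highest of the HOX genes, was lower at 126 days than at 42 days. It stood at 54.2, 59.6, 45.4, 46.7 and 49.8 FPKM at 42 days, at 29.8, 35.8, 37.1, 32.3 and 31.9 FPKM at 126 days, and at 31.5, 36.9, 38.4, 55.6 and 52.0 FPKM at 180 days. The birds of 126 days all lay below those of 42 days, while those of 180 days covered the range between. The log2 fold change was -0.61 (SE 0.14, limma, adjusted p = 0.0394) at 126 against 42 days, or -0.47 relative to the median of all genes, and its adjusted p ran from 0.0299 to 0.0906 over 9 alternatives, with 0.0791 under quantile normalization. It stayed under 0.05 in 1 of the 10 fits that left out 1 bird (limma, adjusted p of 0.0364 to 0.101). At 180 against 42 days it was -0.28 (adjusted p = 0.471, limma). HOXA5 and HOXA7 were the only 2 of 26 members with an adjusted p under 0.05 in this comparison, where 3.21% of all genes had one. They were also the only 2 whose birds did not overlap, where 6.44% of all genes had no overlap.

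Some markers of T and B cells moved in the same comparison. Of the 6 T cell markers 5 were tested and 3 (CD3E, CD8A and LCK) were higher DEGs at 126 against 42 days, as was JCHAIN, 1 of 2 tested of the 4 B cell markers. CD3D was higher (1.38, limma, adjusted p = 0.0542) and CD4 lower (-0.73, limma, adjusted p = 0.300), neither being a DEG. Over all genes tested 2.46% were DEGs in this comparison. Summed T cell markers were 8.16 to 19.4 FPKM at 126 days, against 2.76 to 7.13 FPKM at 42 days, and summed B cell markers were 21.9 to 59.7 FPKM, against 0.96 to 13.5 FPKM, both without overlap. PAX5 and CD79B did not pass the filter there, and BLK was no DEG (0.86, limma, adjusted p = 0.301). The B cell call thus rests on JCHAIN alone (log2 fold change 3.77). At 180 days 4 birds lay between 4.40 and 7.06 FPKM for T cells and between 1.39 and 5.99 FPKM for B cells, while bird 1 reached 82.7 and 518 FPKM. All 5 myeloid markers had a positive log2 fold change at 126 against 42 days (median 1.07), but 0 were DEGs. Their sums overlapped, at 134 to 572 FPKM at 126 days and 72.2 to 209 FPKM at 42 days. Fibroblast sums also overlapped between 126 and 42 days. The part of immune cells in the values of HOXA5 and HOXA7, and in those of other genes that changed at 126 days, was not tested.

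HOXA3 was lower at 180 days than at 42 days. It stood at 3.40, 4.00, 3.34, 2.18 and 2.39 FPKM at 42 days, at 3.30, 1.08, 0.76, 2.30 and 1.30 FPKM at 126 days, and at 1.52, 1.26, 1.65, 1.39 and 1.56 FPKM at 180 days. These levels are sums of 2 entries, the higher of which held 92.9% over all birds. In bird 5 at 126 days, however, that entry was 0 and the other held the 1.30 FPKM. The 180-day birds lay close together and below every 42-day bird, and the 126-day birds spread over both. The log2 fold change at 180 against 42 days was -0.98 (SE 0.23, limma, adjusted p = 0.0389), just short of the fold threshold, and it passed both thresholds when libraries were rescaled to a common sum (-1.04). Over 9 alternatives its adjusted p ran from 0.0314 to 0.119 (limma), and it stayed under 0.05 in 3 of the 10 fits that left out 1 bird (0.0239 to 0.118). HOXA3 was the only member of 26 with an adjusted p under 0.05 there, where 3.41% of all genes had one. HOXA6, next to HOXA5, averaged 3.98 ± 0.86, 3.19 ± 0.71 and 3.56 ± 1.54 FPKM, and HOXA10, among the later genes of the cluster, 3.66 ± 0.94, 3.32 ± 0.42 and 3.18 ± 0.91 FPKM at 42, 126 and 180 days (SD, n = 5 each). The lowest adjusted p of either in any comparison was 0.458 (limma).

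**Figure D4:**
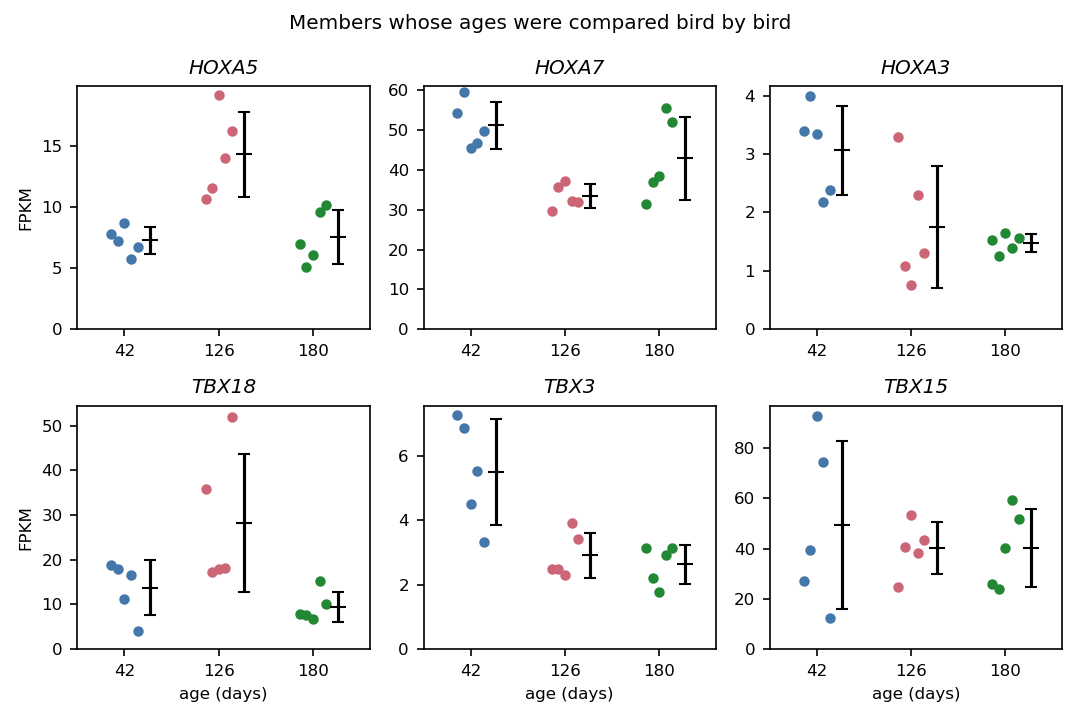
FPKM (vertical, from 0) of HOXA5, HOXA7, HOXA3, TBX18, TBX3 and TBX15 by age in days (horizontal), 1 point per bird, with the mean and SD of 5 birds beside them. HOXA5 lies between 10.6 and 19.2 FPKM at 126 days, above the birds of both other ages, and TBX15 spreads from 12.4 to 92.8 FPKM at 42 days alone.

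Among the T-box genes, TBX15, which marks fast glycolytic fibres in mouse muscle, was the highest. It stood at 27.1, 39.4, 92.8, 74.4 and 12.4 FPKM at 42 days, at 24.8, 40.5, 53.5, 38.2 and 43.3 FPKM at 126 days, and at 26.0, 23.7, 40.4, 59.2 and 51.6 FPKM at 180 days. The spread within an age was larger than any difference between the age means (49.2, 40.0 and 40.2 FPKM), and the log2 fold changes were -0.01, -0.05 and -0.04 with adjusted p of 0.993, 0.976 and 0.966 (limma). Their sign turned with the bird left out and, for both comparisons with 42 days, with quantile normalization. Bird 5 at 42 days, the lowest for TBX15, was also the lowest for the summed muscle fibre markers that could be matched (4 of 8 names, 11941 FPKM, against 17462 to 29362 FPKM in the other birds). The highest sum was that of bird 1 at 42 days, with TBX15 at 27.1 FPKM. In bird 3 at 42 days, the highest for TBX15, the sum was 25248 FPKM. Summed skin epithelium markers (3 of 4 names found) were highest in bird 5 at 42 days (24.0 FPKM, against at most 8.96 FPKM in the others). The part of fibre content and of skin cells in the level of TBX15 was not tested.

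TBX18, a T-box gene of mesenchyme and vessel walls, was lower at 180 days than at 126 days. It stood at 18.9, 18.0, 11.3, 16.6 and 4.12 FPKM at 42 days, at 35.8, 17.4, 18.0, 18.2 and 52.1 FPKM at 126 days, and at 7.86, 7.57, 6.84, 15.2 and 10.02 FPKM at 180 days. Birds 1 and 5 at 126 days were far above the other 13, but also the remaining 126-day birds lay above every 180-day bird. The log2 fold change at 180 against 126 days was -1.47 (SE 0.33, limma, adjusted p = 0.0542), past the fold threshold and short of the p threshold. Without bird 1 of 126 days it was -1.35 (limma, adjusted p = 0.1105), and without bird 1 of 180 days it was -1.42 (limma, adjusted p = 0.0488), which passes both. Over 9 alternatives its adjusted p ran from 0.0426, with the replicate number as a block, to 0.109 (limma). At 126 against 42 days it was 1.06 (SE 0.44, limma, adjusted p = 0.207), with overlapping birds. Summed fibroblast markers (6 of 6 names found) ranged from 246 to 816 FPKM at 42 days, from 194 to 1272 FPKM at 126 days and from 39.4 to 219 FPKM at 180 days. All 6 markers were detected at every age. At 180 against 126 days all 6 had a negative log2 fold change (median -1.92, against 0.01 over all genes tested), and 0 were DEGs. At 180 against 42 days 4 of the 6 (COL1A1, COL1A2, COL3A1 and LUM) were lower DEGs, where 2.93% of all genes tested were DEGs. TBX18 changed by -0.42 in that comparison (limma, adjusted p = 0.644). In bird 5 of 126 days, the highest for TBX18, the fibroblast sum was 333 FPKM, and in bird 1 it was 1272 FPKM. Summed smooth muscle and pericyte markers (4 of 4 names found) ranged from 54.8 to 84.5 FPKM at 126 days and from 49.7 to 111 FPKM at 180 days. Their median log2 fold change at 180 against 126 days was 0.09, and that of the endothelial markers was 0.11, without a DEG in either list. The part of fibroblasts and of vessel wall cells in the level of TBX18 was not tested. Between 180 and 42 days the fibroblast sums did not overlap, and neither did HOXA3 and TBX3. Summed Schwann cell markers (4 of 4 names found) did not overlap there either, without a DEG. They ranged from 1.00 to 2.06 FPKM at 180 days and from 2.97 to 21.2 FPKM at 42 days. The part of fibroblasts and of Schwann cells in HOXA3 and TBX3 was not tested either. In whole muscle, fewer cells of a type and less RNA per cell cannot be told apart.

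TBX3, a T-box repressor of limb and mammary development, was highest at 42 days. It stood at 7.29, 6.87, 4.5, 5.55 and 3.34 FPKM at 42 days, at 2.48, 2.48, 2.29, 3.91 and 3.41 FPKM at 126 days, and at 3.15, 2.2, 1.79, 2.92 and 3.13 FPKM at 180 days. All 180-day birds lay below all 42-day birds, and at 126 days 2 birds reached into the range of 42 days. The log2 fold change was -1.01 (SE 0.26, limma, adjusted p = 0.0547) at 180 against 42 days and -0.87 (SE 0.25, limma, adjusted p = 0.0858) at 126 against 42 days. With all 3 ages in one fit TBX3 was a DEG at 180 against 42 days (limma, adjusted p = 0.0315), as it was after rescaling to a common sum (-1.07, limma, adjusted p = 0.0431), while the adjusted p was 0.113 with quantile normalization, the highest of 9 alternatives. TBX3 and HOXA3 were the only 2 of 26 members whose birds did not overlap between 180 and 42 days, where 5.66% of all genes had no overlap. Between 180 and 126 days they were HOXA5 and TBX18, 2 of 25, where 4.31% of all genes had none, and no member had an adjusted p under 0.05 there, against 1.25% of all genes.

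The T-box genes that set wing against leg were near the low end. TBX5, the gene of the forelimb, ranged from 0.08 to 0.76 FPKM, with means of 0.42 ± 0.19, 0.27 ± 0.28 and 0.18 ± 0.07 FPKM at 42, 126 and 180 days (SD, n = 5 each). Without bird 1 the 126-day mean was 0.15 ± 0.08 FPKM (SD, n = 4). TBX4, its counterpart in the leg, did not exceed 0.07 FPKM and was above 0 in 8 of 15 birds. TBX5 was above 0 in all 15 birds and higher than TBX4 in each of them. PITX1, which acts before TBX4 in the leg, did not exceed 0.28 FPKM. None of the 3 passed the filter of the comparisons.

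The other T-box genes were lower or varied by bird. TBX21, a T-box gene of T and natural killer cells, ranged from 0.95 to 7.95 FPKM, with its highest values in birds 2 and 1 of 42 days (7.95 and 6.16 FPKM) and bird 1 of 180 days (4.91 FPKM). Summed T cell markers (6 of 6 names found) were 5.79 and 7.13 FPKM in these 42-day birds and 82.7 FPKM in the 180-day bird, against 2.76 to 19.4 FPKM over the other 12 birds, and their part in TBX21 was not tested. TBX2 averaged 0.76 ± 0.47, 0.72 ± 0.27 and 0.78 ± 0.20 FPKM at the 3 ages. TBX1, TBX6, TBX19, TBX20 and TBX22 did not exceed 0.56 FPKM in any bird. TBX19 was listed at 0 in 3 of 5 birds at 126 days and between 0.19 and 0.56 FPKM in every bird of the other ages.

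SIX4, a SIX-family homeodomain factor of muscle precursors in the mouse, was on at all 3 ages. It averaged 5.83 ± 1.49, 5.91 ± 1.22 and 4.85 ± 1.35 FPKM at 42, 126 and 180 days (SD, n = 5 each). SIX3, a gene of the forebrain and eye, was listed at 0 in 13 of 15 birds and reached 0.40 FPKM in 1.

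Among the co-activators and co-repressors of SIX-family proteins, 1 gene passed the test. EYA4 was the highest of the 6 listed (EYA1 to EYA4, DACH1 and DACH2), with 49.4 ± 13.9, 42.2 ± 12.3 and 68.6 ± 27.6 FPKM at 42, 126 and 180 days (SD, n = 5 each), and was no DEG. EYA1 stood at 2.48, 1.87, 1.12, 3.01 and 1.93 FPKM at 126 days, against 4.35, 3.39, 4.24, 7.05 and 6.95 FPKM at 42 days, without overlap. It fell by 1.29 on the log2 scale (SE 0.29, limma, adjusted p = 0.0365), in a comparison where 2.46% of all genes tested were DEGs and 6.44% had no overlap. EYA1 was the only DEG of the list, 1 of 4 tested, in any comparison. This call was lost in 8 of the 10 fits that left out 1 bird, and the change was -0.39 (limma, adjusted p = 0.731) when the entries of the name were not summed and the highest alone was kept, the highest adjusted p of 9 alternatives. The median log2 change of the list was -0.37 at 126 against 42 days.

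MEIS1 and PBX3, whose proteins bind DNA beside HOX proteins, did not pass the test. PBX3 averaged 3.79 ± 0.56, 3.01 ± 0.56 and 3.73 ± 0.35 FPKM and MEIS1 9.84 ± 2.49, 10.1 ± 3.70 and 11.3 ± 2.13 FPKM at 42, 126 and 180 days (SD, n = 5 each). Neither had an adjusted p under 0.05 in any comparison (limma). MEIS1 is the sum of 6 entries, the highest of which held 66.3%. MEIS2 was at most 1.18 FPKM in 14 birds and 5.00 FPKM in bird 1 of 126 days, the bird with the highest fibroblast, endothelial and erythrocyte markers. MEIS2 was singled out after its values had been seen, and the part of these cells in this value was not tested.

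A related homeodomain gene fell at 126 days. PKNOX2, which also binds PBX proteins, stood at 15.4, 14.5, 17.2, 19.6 and 22.3 FPKM at 126 days, against 34.5, 53.2, 40.7, 43.1 and 31.5 FPKM at 42 days. The birds did not overlap, and PKNOX2 fell by 1.18 on the log2 scale (SE 0.19, limma, adjusted p = 0.0106). It stayed a DEG under each of 9 alternatives and in each of the 10 fits that left out 1 bird. At 180 days it stood at 22.2, 22.8, 33.8, 28.4 and 28.6 FPKM, and the change against 42 days was -0.57 (limma, adjusted p = 0.118). PKNOX1 averaged 5.38 ± 1.62 FPKM at 126 days, against 8.69 ± 1.81 FPKM at 42 days (SD, n = 5 each), without overlap, but with an adjusted p of 0.128 (limma, log2 fold change -0.71). Of the 11 listed genes of this class (PKNOX, TGIF, IRX and MKX genes) 9 were found and 4 were tested at 126 against 42 days, and PKNOX2 was the only DEG. Of all genes tested, 2.46% were DEGs there. PKNOX2 and PKNOX1, 2 of the 4, had no overlap, against 6.44% of all genes tested. The other 2 tested genes were higher at 126 days without being DEGs. These were TGIF1 (log2 fold change 1.48, limma, adjusted p = 0.134) and MKX (1.17, limma, adjusted p = 0.156). The 5 IRX genes found did not exceed 0.23 FPKM in any bird.

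**Figure D5:**
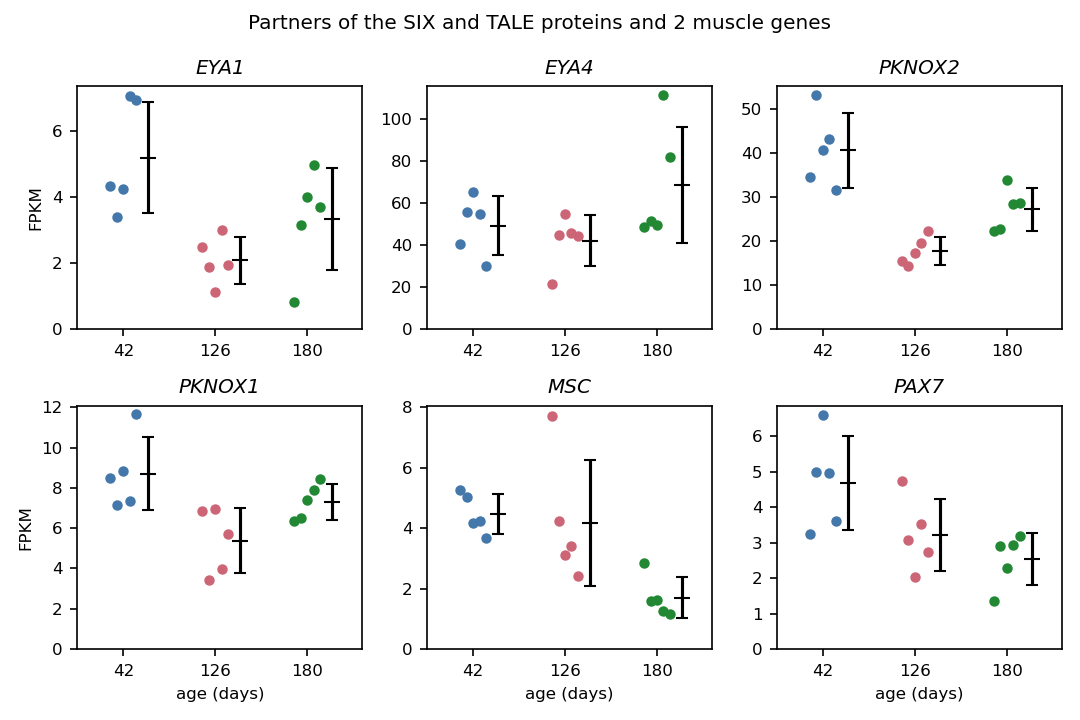
FPKM (vertical, from 0) of EYA1, EYA4, PKNOX2, PKNOX1, MSC and PAX7 by age in days (horizontal), 1 point per bird, with the mean and SD of 5 birds beside them. PKNOX2 lies between 14.5 and 22.3 FPKM at 126 days, under all birds of 42 days, and MSC lies between 1.15 and 2.85 FPKM at 180 days.

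Other genes of limb and muscle patterning, 24 of 25 listed names found, were mostly low. Of these, 6 were on at all 3 ages, where the same rule held for 45.1% of all gene names. MSC (musculin), a repressor of muscle differentiation, stood at 2.85, 1.60, 1.64, 1.25 and 1.15 FPKM at 180 days, against 5.26, 5.02, 4.19, 4.24 and 3.67 FPKM at 42 days, and fell by 1.41 on the log2 scale (SE 0.26, limma, adjusted p = 0.0110). It was the only DEG of the list, 1 of 7 tested, in that comparison, where 2.93% of all genes tested were DEGs. MSC stayed a DEG under each of 9 alternatives and in each of the 10 fits that left out 1 bird. PAX7, the gene of satellite cells, averaged 2.54 ± 0.73 FPKM at 180 days, against 4.69 ± 1.33 FPKM at 42 days (SD, n = 5 each), without overlap, with a log2 fold change of -0.87 (limma, adjusted p = 0.113). MSC and PAX7 were the 2 of 7 tested genes of the list without overlap there, where 5.66% of all genes tested had none. LBX1, a gene of migrating limb muscle precursors, averaged 3.40 ± 0.43, 3.54 ± 1.32 and 3.08 ± 1.37 FPKM at 42, 126 and 180 days. It was thus still on in breast muscle of all ages, without a DEG call in any comparison. Summed fibroblast and Schwann cell markers did not overlap between 180 and 42 days either, and their part in the values of MSC and PAX7 was not tested.

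The chromatin regulators of HOX genes held no DEG. Of 18 listed Polycomb and Trithorax genes 13 were found and 11 were on at all 3 ages. At 126 against 42, 180 against 42 and 180 against 126 days the fits tested 11, 12 and 11 of them, with 0 DEGs and 0 genes at an unadjusted p under 0.05 (19.6%, 17.6% and 15.8% of all genes tested), and with median log2 fold changes of -0.20, -0.19 and 0.02, against -0.15, -0.13 and 0.01 over all genes tested. The fast glycolytic fibre genes held no DEG either. Of 14 listed, 9, 8 and 9 were tested in these comparisons, with 0 at an unadjusted p under 0.05 (limma) in each.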

How the data were processed

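Levels were taken from a table of FPKM deposited for 15 breast muscle libraries, 5 per age, given with 2 decimals. The authors trimmed and checked paired-end reads, mapped them to the chicken genome with HISAT2 2.2.1 and, as the submitters' processing notes name it, used StringTie 2.1.6; the genome build and annotation are not given in the sources used here. The sums of FPKM differ between libraries and the table holds no counts, so that depth and counting error are unknown. The study states 10 hens per age, and 5 per age were used here.

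FPKM were summed over entries with the same gene name (48836 entries, 23599 names; 17 of the 51 members had several). Ages were compared in pairs, the 10 birds of a pair entering a limma fit (version 3.58.1, R 4.3.3, trend option) on log2(FPKM + 0.1). Names whose mean reached 0.5 FPKM were kept, with Benjamini-Hochberg adjustment over all names tested and two-sided tests, the later age over the earlier. The fold change on this scale understates changes of low genes. The test used in the study needs counts. Levels, ratios and figures were computed in Python 3.11.15 with pandas 2.3.3, numpy 2.4.6 and matplotlib 3.10.9. The fit was run on simulated data with independent noise and planted changes larger than those of any member. That run does not show how often changes of the members' size would be found. P-values set the difference between 2 age means against the spread between birds of an age. Each age was slaughtered as a group of its own, so that age and time of collection cannot be told apart.

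Members named in full are the 12 with the highest mean, any DEG, those without overlap between ages (up to 5 per comparison), the highest of each HOX cluster, TBX5 and TBX4, and any whose highest bird held 0.5 FPKM or more and exceeded the next more than 5 times, which none did; 2 members are not reported here. Of the other lists, DEGs (up to 3 per list and comparison), PITX1, PAX7 and LBX1 are named. Further genes were named after their values had been seen. The members and lists were chosen with earlier results of these data known. Alternatives were a pseudocount of 1, no filter or a mean of at least 0.1 or 1 FPKM, quantile normalization, rescaling of each library to 1000000 FPKM, a joint fit of the 3 ages, a block for the replicate number, the highest entry of each name, and each bird left out. RefSeq symbols matched 49 of 51 members and served only for the overlap of neighbouring genes. No sequences or coordinates are given, and the labels name no batch.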

Additional observations from a re-analysis of the deposited data

Results flagged for a closer look

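In each group of 5 birds, the highest or lowest value was compared with its neighbour, and a gap above 0.71 of the group's range was singled out. This was done for 23 genes at 3 ages, 69 groups in all, of which 6 stood out. Chance singles out about 1 in 20 groups.

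Bird 1 of 126 days stood alone for 2 members. HOXB4 was 12.4 FPKM there, against 6.98 FPKM in the next bird, and TBX5 was 0.76 FPKM, against 0.23 FPKM in the next. This is the bird with the highest fibroblast markers (1272 FPKM), and their part in these values was not tested. Bird 1 of 180 days, the bird with the highest T cell, B cell and myeloid markers, stood alone for MSC with 2.85 FPKM, against 1.64 FPKM in the next, and for PITX1 with 0.23 FPKM, against 0.06 FPKM. The other values were close to 0. TBX4 was 0.03 FPKM in bird 1 of 42 days and 0 in the other 4 of that age, and PITX1 was 0.09 FPKM in bird 3 of 42 days, against 0.02 FPKM in the next.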

How the results depend on the processing

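The count of 23 members that were on ranged from 19 to 33 over the other levels and scalings and from 23 to 24 with 1 bird left out. The member DEGs, 0 in each comparison, became 1 (HOXA5) with quantile normalization at 126 against 42 days, and at 180 against 42 days 2 (HOXA3 and TBX3) with rescaled FPKM and 1 (TBX3) with all 3 ages in one fit. With 1 bird left out they ranged from 0 to 1, from 0 to 2 and from 0 to 1 at 126 against 42, 180 against 42 and 180 against 126 days: HOXA5 without bird 3 of 42 days (1.02) or bird 1 of 126 days (1.05), TBX3 at 126 against 42 days without bird 5 of 42 days (-1.04), at 180 against 42 days HOXA3 without bird 4 (-1.08) or 5 (-1.05) of 42 days and TBX3 without bird 5 of 42 days (-1.18) or bird 1 of 180 days (-1.08), and TBX18 at 180 against 126 days without bird 1 of 180 days (-1.42). The cause was not tested.

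The DEGs among all genes moved more. At 126 against 42 days the 283 DEGs became 186 with a pseudocount of 1, 169 without a filter and 51 with the highest entry of each name, and ranged from 77 (without bird 2 of 42 days) to 375 (without bird 1 of 126 days) with 1 bird left out, with 182 and 144 without birds 1 and 4 of 42 days and 85, 85 and 159 without birds 2, 3 and 4 of 126 days. At 180 against 42 days the 342 became 172 with the highest entry and ranged from 176 (without bird 2 of 42 days) to 770 (without bird 1 of 180 days), with 222 and 221 without birds 1 and 4 of 42 days and 215, 225 and 218 without birds 3, 4 and 5 of 180 days. At 180 against 126 days the 106 became 53 without a filter and 20 with the highest entry and ranged from 15 (without bird 2 of 180 days) to 378 (without bird 1 of 180 days), with 49, 57 and 62 without birds 2, 3 and 4 of 126 days and 21, 45 and 44 without birds 3, 4 and 5 of 180 days. The EYA1 call, 1 DEG among SIX-family cofactors at 126 against 42 days, became 0 with a pseudocount of 1, no filter, all 3 ages in one fit or the highest entry, and ranged from 0 to 1 with 1 bird left out, holding only without bird 1 or 4 of 126 days. The limb and muscle patterning genes had 1 DEG in place of 0 at 126 against 42 days with all 3 ages in one fit, and ranged from 0 to 1 there and at 180 against 126 days with 1 bird left out, while the other TALE genes ranged from 1 to 2 at 126 against 42 days.

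The replicate numbers were not taken to pair the birds, since no label ties them. Same-numbered birds correlated in their deviations above 0.1 in 9 of 15 pairs (r between -0.128 and 0.320). At 180 against 126 days r was 0.320, 0.106, -0.0235, 0.225 and 0.109 for numbers 1 to 5. Among the 5 birds of the earlier age, the same number gave the highest r for numbers 1 and 3 at 126 against 42 days. It did so for no number at 180 against 42 days, and for numbers 1, 4 and 5 at 180 against 126 days. For the remaining numbers a differently numbered bird gave a higher r. These values do not settle whether the numbers tie birds. With the number as a block the DEGs at 180 against 126 days were 270, the member DEGs 1 (TBX18, limma, adjusted p = 0.0426) and those of the patterning genes 1.

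Some small changes turned sign. With a pseudocount of 1 at 126 against 42 days MEIS1 was 0.00188 and LBX1 0.000437. With quantile normalization TBX15 was 0.0892, MEIS1 0.0985 and LBX1 0.109 at 126 against 42 days, and TBX15 0.0140 and PBX3 0.0996 at 180 against 42 days. With rescaled FPKM SIX4 was -0.0206 at 126 against 42 days and HOXA5 -0.0209 at 180 against 42 days. With the highest entry HOXB4 was 0.188 at 180 against 42 days, and HOXA3 0.856 and EYA1 -0.127 at 180 against 126 days. With 1 bird left out, at 126 against 42 days LBX1 ran from -0.19 to 0.21, MEIS1 from -0.16 to 0.16, SIX4 from -0.10 to 0.12 and TBX15 from -0.42 to 0.30, at 180 against 42 days HOXA5 from -0.10 to 0.15, PBX3 from -0.0671 to 0.0616 and TBX15 from -0.47 to 0.26, and at 180 against 126 days HOXA3 from -0.29 to 0.21, HOXA6 from -0.13 to 0.24 and TBX15 from -0.21 to 0.12. The number of birds per age and the unknown depth limit what values under 0.5 FPKM can show.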
